A study of Drosophila melanogaster with 6 samples.

Results

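The genes described here are sls, bt, Obsc (also written Unc-89), Strn-Mlck, Zasp52, Zasp66, Prm, Mlp84B and Mlp60A, which encode the giant titin-like proteins, Z-disc proteins and associated filament proteins of fly muscle. Every probe set that the array annotation pairs with one of these 9 genes was taken, which gave 19 of the 18952 probe sets, each annotated to 1 gene. The annotation names 11982 genes in all. RNA came from ovaries of Drosophila melanogaster females and was biotin-labelled for 6 one-colour arrays. The bam samples, 3 in number, carried the allele bam[delta86], and the 3 stwl bam samples were double mutants whose stwl and bam alleles are not named in the labels. All flies were raised on cornmeal molasses food with dry yeast and received no treatment, and neither their age nor the number of animals per sample is stated in the labels. Loss of bam stops germline stem cell daughters from differentiating, so ovaries of both genotypes lack a normal series of egg chambers, and the product of stwl, Stonewall, binds chromatin and is required for germline stem cells to persist. The labels do not say whether replicates were separate biological preparations, so the p-values reflect the spread between these samples only, which may be technical.

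Striated muscle is built of sarcomeres, in which thin actin filaments are anchored at Z-discs and thick myosin filaments are held together at the M-line. Giant proteins made of repeated immunoglobulin and fibronectin domains run between these structures: Sallimus, the product of sls, ties the Z-disc to the thick filament, projectin, the product of bt, lies along the filaments, and Obscurin organises the M-line. Zasp proteins bind alpha-actinin at the Z-disc, muscle LIM proteins lie at and around the Z-disc, and Paramyosin, the product of Prm, forms the core of the thick filament. In the fly ovary, muscle lies in the peritoneal sheath around the organ and in the epithelial sheath around each ovariole. A lower or higher signal in a whole ovary may come from the number of muscle cells or from the RNA per cell, among other sources. These arrays cannot tell such sources apart.

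Zasp66 and Mlp84B had probe sets that were higher in stwl bam, Obsc and Strn-Mlck each had 1 that was lower, and the other 5 genes had none that passed. Among the 18 probe sets bright enough to be tested, 3 were higher in stwl bam (2 of Zasp66 and the one of Mlp84B), 2 were lower (1 of Obsc and 1 of Strn-Mlck), and 13 did not pass. The test was limma on log2 of quantile-normalized intensities, with p-values adjusted by the Benjamini-Hochberg method over all 11477 tested probe sets and a threshold of 0.05. Over all tested probe sets 23.2% passed, against 27.8% of the muscle probe sets. With each gene represented by its brightest probe set, 44.4% of the 9 genes passed, against 24.1% of all 8764 genes tested, and nothing particular to these genes is read from either share. The median log2 change was 0.07 over the 18 probe sets and -0.03 over all 11477. For 5 of the 18 probe sets the genotypes did not overlap, 2 with stwl bam above and 3 with stwl bam below, against 41.1% of all tested probe sets (19.5% above and 21.6% below); by direction, 11.2% of all tested probe sets passed as higher and 12.0% as lower. These counts rested on single arrays: 1 probe set was called higher when replicate 1 or 2 of bam or replicate 1 or 3 of stwl bam was left out, and 5 without stwl bam replicate 2. The count of lower calls was 0 without bam replicate 2 or bam replicate 3, 1 without bam replicate 1 or stwl bam replicate 3, 3 without stwl bam replicate 2 and 4 without stwl bam replicate 1.

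Measurements on the whole arrays stand beside these values. RNA quality differed between the genotypes: 5' signal divided by 3' signal ran from 0.129 to 0.183 in bam and 0.524 to 0.675 in stwl bam for the actin control, from 0.0798 to 0.108 and 0.417 to 0.448 for eIF-4a, and from 0.124 to 0.152 and 0.258 to 0.374 for GAPDH. Where along each transcript the probe sets of the 9 genes lie was not known, so the part of this difference in their values was not tested. The stwl probe set changed by -0.31 on the log2 scale, with a limma adjusted p of 0.396, and the bam probe set by 1.29, with a limma adjusted p of 0.00935; what the alleles do to the measured parts is not known, so neither checks the labels. Background, taken as percentile 95 of 44 controls for sequences that flies lack, lay between 13.5 and 38.8 in deposited intensity, and 15 of the 18 tested muscle probe sets were above it on every array.

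**Figure D1:**
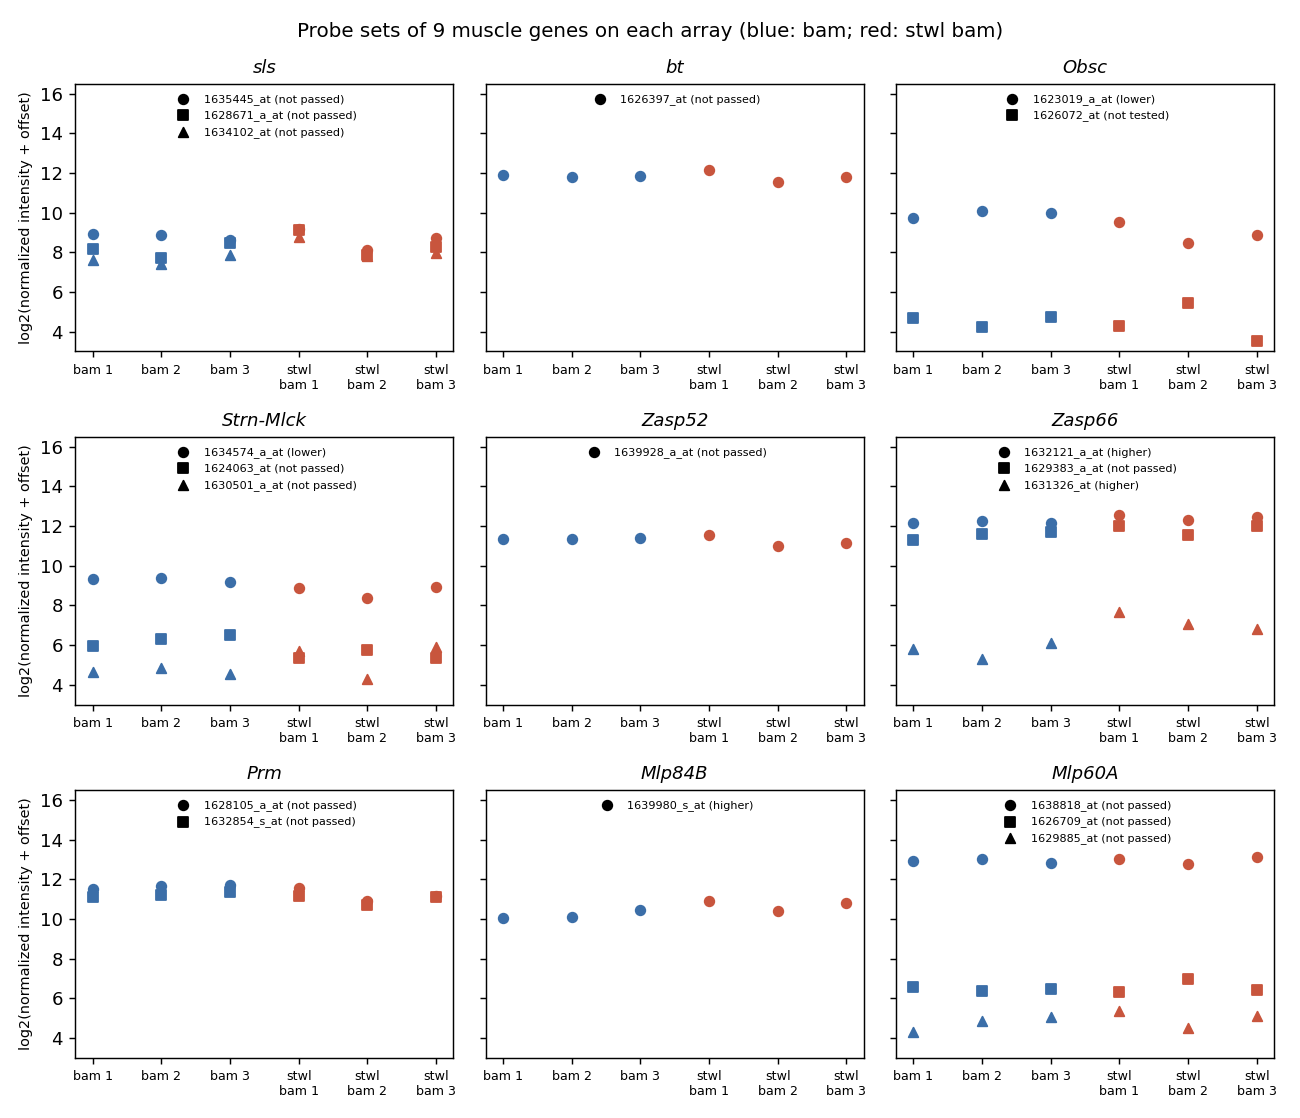
Level of each of the 19 probe sets on each of the 6 arrays, in 1 panel per gene, on a vertical axis of log2 of the normalized intensity plus an offset of 7.9 (blue: bam, red: stwl bam; marker shape: probe set, with its result in the legend). Both Zasp66 probe sets called higher have all stwl bam points above all bam points, Obsc 1623019_a_at has all stwl bam points below, and most bright probe sets dip on stwl bam replicate 2.

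Among the giant proteins, Obsc gave the largest fall of the 18 probe sets. Its probe set 1623019_a_at had normalized intensities of 854, 1070 and 998 on the bam arrays and 728, 350 and 465 on the stwl bam arrays. All stwl bam arrays lay below all bam arrays, and stwl bam replicate 1 was the closest to them. On the log2 scale the level went from 9.93 ± 0.16 to 8.96 ± 0.52 (SD, n = 3) and thus fell by 0.97 ± 0.23 (SE), which is 1.96-fold lower, with a limma adjusted p of 0.0188. Leaving out 1 array ended the call for bam replicate 2 (limma adjusted p of 0.0716), bam replicate 3 (0.0624) and stwl bam replicate 3 (0.0659), and the change stayed between -1.25 and -0.73 whichever array was left out. The call was also lost without the intensity trend (limma adjusted p of 0.0613). The other probe set, 1626072_at, was under background on each bam array and on 2 of the 3 stwl bam arrays and was too dim to be tested.

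Strn-Mlck, which encodes Stretchin-Mlck and yields both a myosin light chain kinase and large isoforms without kinase function, had 3 probe sets. Only the dimmest of them had an upward fitted change, and it did not pass. Normalized intensities of 1634574_a_at were 633, 655 and 571 in bam and 461, 323 and 484 in stwl bam. Those of 1624063_at were 54.1, 70.4 and 82.3 in bam and 32.4, 45.1 and 32.9 in stwl bam. In both probe sets every stwl bam array was below every bam array. The brighter one went from 9.29 ± 0.10 to 8.73 ± 0.31 (SD, n = 3) and thus fell by 0.56 ± 0.16 (SE), with a limma adjusted p of 0.0339, and this call was lost without any single bam array, at limma adjusted p of 0.108, 0.106 and 0.0637. It was also lost with median centring (limma adjusted p of 0.0638), without the intensity trend (0.0812) and with the replicate number as a block (0.0514). The change of 1624063_at was -0.78 ± 0.25, with a limma adjusted p of 0.0521. In 11 of 17 alternatives 1624063_at did not pass either, with limma adjusted p up to 0.202, for intensities as deposited. It passed without stwl bam replicate 2 (limma adjusted p of 0.0402), with an offset of 50 (0.0488), with all 6 arrays above the filter (0.0307), without the intensity trend (0.0425), with array weights (0.0462) and with values below background set to it (0.0305).

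The remaining probe set of Strn-Mlck, 1630501_a_at, was dim. It had intensities of 16.6, 20.7 and 15 in bam, below background on all 3 arrays, and of 43.4, 11.8 and 50.9 in stwl bam, below background on stwl bam replicate 2. Stwl bam replicate 2 was the lowest of the 6 arrays and the genotypes overlapped, so no bound on a fold is given, and the fitted change of 0.63 (95% interval -0.38 to 1.64) had a limma adjusted p of 0.346. It passed without stwl bam replicate 2, at 1.12 with a limma adjusted p of 0.0409. The test of the difference itself, limma on the per-array difference between this probe set and 1634574_a_at, gave 1.19 ± 0.30 (SE) on the log2 scale with an adjusted p of 0.031. Over all 764 such pairs of probe sets of 1 gene, 19.2% passed this test, and of the 9 pairs in the muscle genes 2 did. The measure includes values below background, and its call was lost without bam replicate 1 or bam replicate 3 (limma adjusted p of 0.0909 and 0.0693). It was also lost with an offset of 1 (limma adjusted p of 0.073) and with the replicate number as a block (0.0576). Without bam replicate 2, stwl bam replicate 1 or stwl bam replicate 3 the dim probe set fell below the filter and the pair could not be fitted.

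Sallimus did not pass at any of its 3 probe sets. For 1635445_at the intensities were 473, 460 and 384 in bam and 564, 265 and 409 in stwl bam. For 1628671_a_at they were 278, 204 and 353 against 548, 223 and 304. For 1634102_at they were 184, 164 and 223 against 421, 217 and 242. In each of them stwl bam replicate 1 was the highest of the 6 arrays and the genotypes overlapped. The changes were -0.15 (95% interval -0.69 to 0.40), 0.29 (-0.42 to 1.01) and 0.55 (0.00 to 1.11) on the log2 scale, with limma adjusted p of 0.707, 0.548 and 0.138. Relative to the brightest probe set of sls, the others differed in their change by 0.44 and 0.70, with limma adjusted p of 0.338 and 0.0955.

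Projectin, from bt, had intensities of 3830, 3590 and 3710 in bam and 4500, 2940 and 3520 in stwl bam. The stwl bam arrays fell on both sides of the bam arrays. The change was -0.04 (95% interval -0.35 to 0.27), with a limma adjusted p of 0.852, and its sign turned with intensities as deposited (0.09), with rescaling to 1 trimmed mean (0.03) and without stwl bam replicate 2 (0.10). The interval leaves out any change of more than 0.35 on the log2 scale in either direction, given the spread between these samples.

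**Figure D2:**
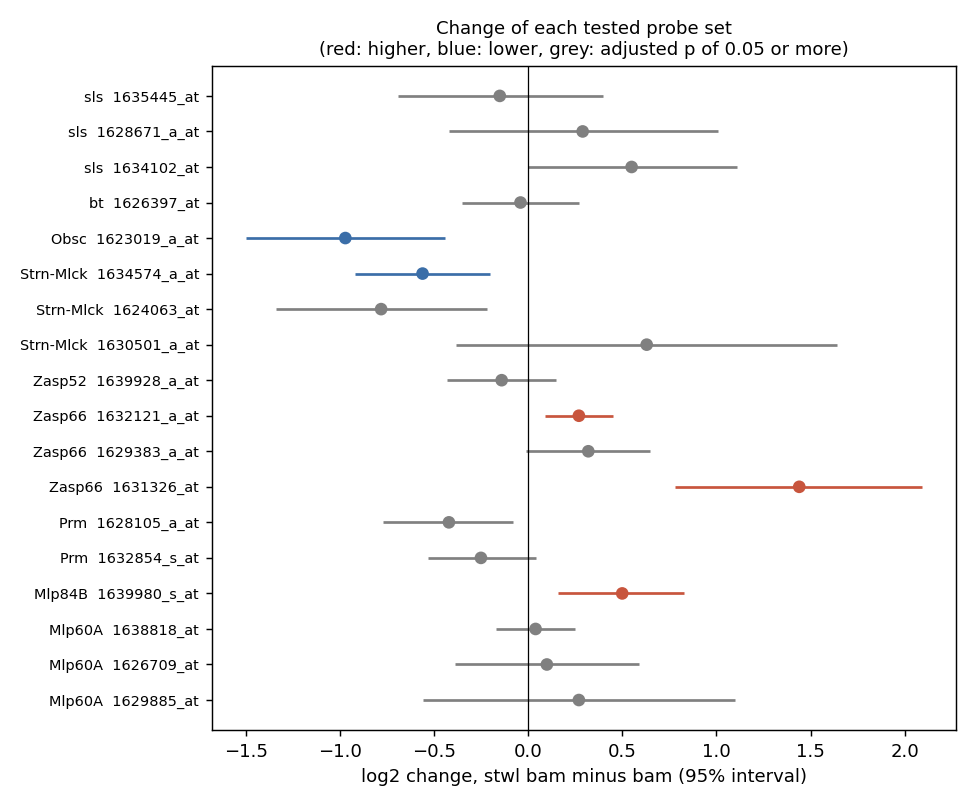
Log2 change from bam to stwl bam of each of the 18 tested probe sets on the horizontal axis, with its 95% interval from limma (red: higher, blue: lower, grey: adjusted p not under 0.05). Zasp66 1631326_at lies farthest to the right at 1.44, Obsc 1623019_a_at farthest to the left at -0.97, and the intervals of the bright probe sets of bt, Zasp52 and Mlp60A are short and include 0.

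At the Z-disc, 2 of the 3 probe sets of Zasp66 were called higher in stwl bam. This gene encodes a Z-disc protein of the Zasp family. The bright probe set 1632121_a_at had intensities of 4480, 4830 and 4620 in bam and 6090, 5080 and 5660 in stwl bam. The dim probe set 1631326_at had 47.8, 31.8 and 61.4 in bam, with bam replicate 2 below background, and 195, 125 and 105 in stwl bam. In both, each stwl bam array exceeded each bam array. The bright one went from 12.18 ± 0.05 to 12.45 ± 0.13 (SD, n = 3) and thus rose by 0.27 ± 0.08 (SE), which is 1.21-fold, with a limma adjusted p of 0.038. The dim one rose by 1.44 ± 0.29, from 5.74 ± 0.40 to 7.18 ± 0.44, which is 2.71-fold, with a limma adjusted p of 0.00957.

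These Zasp66 calls did not hold equally well. The dim probe set passed whichever array was left out, with changes between 1.16 and 1.64 and limma adjusted p between 0.0145 and 0.039. The bright probe set lost its call when any array other than stwl bam replicate 2 was left out, with limma adjusted p up to 0.122 and changes from 0.21 to 0.33. This call was also lost with intensities as deposited (limma adjusted p of 0.0944), with median centring (0.644) and with rescaling (0.0509). The same held without the filter (limma adjusted p of 0.081), without the intensity trend (0.146) and with the replicate number as a block (0.0661). The other bright probe set, 1629383_a_at, read 2480, 3060 and 3350 in bam and 4100, 2980 and 4060 in stwl bam, so that the genotypes overlapped at stwl bam replicate 2. Its change was 0.32 (95% interval -0.01 to 0.65), with a limma adjusted p of 0.153, and it passed without stwl bam replicate 2, at 0.47 with a limma adjusted p of 0.0247. The dim probe set changed more than the bright one by 1.17 ± 0.31 (SE), with a limma adjusted p of 0.0374. Without replicate 1 or 2 of either genotype that difference was no longer called, and the limma adjusted p was 0.0849 and 0.0774 for bam and 0.0881 and 0.0896 for stwl bam. The call was also lost with the replicate number as a block (limma adjusted p of 0.0661) and with an offset of 1 (0.0506), at differences of 1.17 and 1.30. The bright probe sets of Zasp66 differed from each other by 0.05 (95% interval -0.43 to 0.53).

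Zasp52, the larger Zasp protein of the Z-disc, had intensities of 2610, 2630 and 2720 in bam and 2990, 2060 and 2250 in stwl bam. The bam arrays lay close together, with an SD of 0.03 on the log2 scale, and the stwl bam arrays lay on both sides of them, with an SD of 0.28. The change was -0.14 (95% interval -0.43 to 0.15), with a limma adjusted p of 0.467, and it passed without stwl bam replicate 1, at -0.29 with a limma adjusted p of 0.0252. Zasp66 and Zasp52, related by family, thus gave a call and no call, and the difference between these genes was not tested.

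Prm, whose promoters yield Paramyosin and the shorter Miniparamyosin, was measured by 2 bright probe sets. Probe set 1628105_a_at read 2910, 3280 and 3310 in bam and 3000, 1880 and 2310 in stwl bam. Probe set 1632854_s_at read 2220, 2370 and 2600 in bam and 2230, 1650 and 2220 in stwl bam. In both, stwl bam replicate 2 was the lowest of the 6 arrays and stwl bam replicate 1 lay within the bam range. The changes were -0.42 (95% interval -0.77 to -0.08) and -0.25 (-0.53 to 0.04), with limma adjusted p of 0.0768 and 0.19. The first of them passed without stwl bam replicate 1, at -0.59 with a limma adjusted p of 0.00601. Which of the protein forms each probe set measures was not known, and the 2 changes differed by 0.17 with a limma adjusted p of 0.578.

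The muscle LIM proteins gave 1 call. Mlp84B, a LIM-domain protein of the Z-disc that works with Sallimus in flies, read 1060, 1090 and 1370 in bam and 1890, 1350 and 1750 in stwl bam. Its level went from 10.20 ± 0.20 to 10.69 ± 0.26 (SD, n = 3) and thus rose by 0.50 ± 0.15 (SE), which is 1.41-fold, with a limma adjusted p of 0.0408, although bam replicate 3 and stwl bam replicate 2 overlapped. Without bam replicate 1, bam replicate 2, stwl bam replicate 1 or stwl bam replicate 3 the call was lost, at limma adjusted p of 0.14, 0.126, 0.0869 and 0.126. Median centring (limma adjusted p of 0.386), no filter (0.0635) and no intensity trend (0.108) also ended it. Mlp60A, a small protein with a single LIM domain, gave a bright probe set, 1638818_at, at 7730, 8380 and 7230 in bam and 8250, 7020 and 8800 in stwl bam. The genotypes overlapped widely there, and the change was 0.04 (95% interval -0.17 to 0.25), with a limma adjusted p of 0.794. Its dimmer probe sets 1626709_at, between 73.1 and 117 over the 6 arrays, and 1629885_at, between 12.1 and 33.3, changed by 0.10 and 0.27, with limma adjusted p of 0.777 and 0.639. The dimmest of them was under background throughout bam and on 1 stwl bam array.

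The spread among the stwl bam arrays was larger than among the bam arrays for 17 of the 18 probe sets, against 59.9% of all tested probe sets. The median SD on the log2 scale was 0.16 in bam and 0.32 in stwl bam for the muscle probe sets, and 0.16 and 0.21 over all tested probe sets. Among the stwl bam arrays, replicate 1 was the highest for 13 of the 18 probe sets and replicate 2 the lowest for 15, where over all tested probe sets these shares were 33.1% and 32.2%. Replicate 1 exceeded replicate 2 in 16 of 18, with a median difference of 0.57, against 46.9% and a median difference of -0.03 over all. The largest of these differences among probe sets above background on every array were in sls, at 1.27 and 1.07, and Obsc, at 1.04, and the opposite order was seen in Strn-Mlck 1624063_at (-0.39) and Mlp60A 1626709_at (-0.63). All 18 probe sets, of different genes too, were read from the same RNA samples, so these counts are a description with no test.

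**Figure D3:**
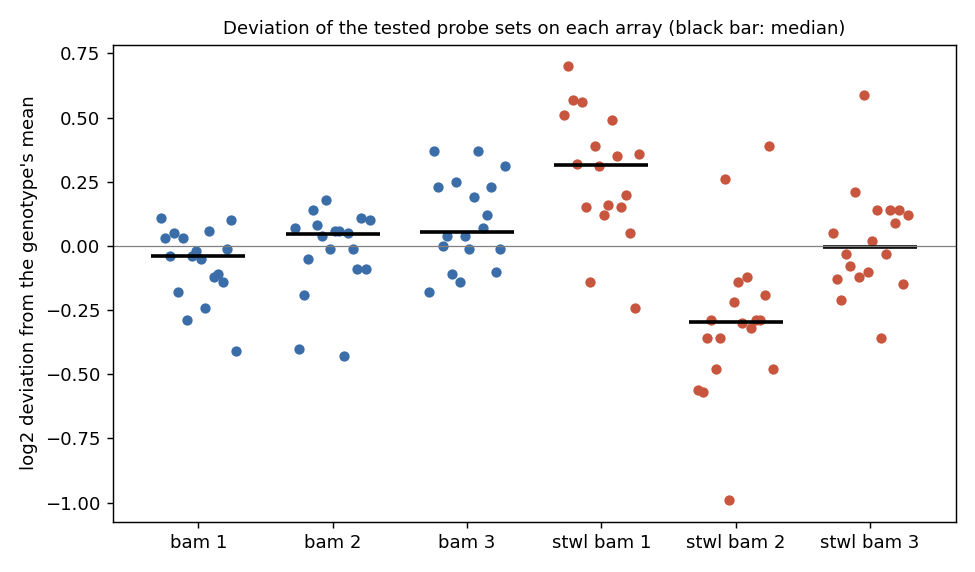
Deviation of each of the 18 tested probe sets from its own genotype's mean, in log2 units on the vertical axis, by array (blue: bam, red: stwl bam; black bar: median). Points of stwl bam replicate 1 lie mostly above 0 and those of stwl bam replicate 2 mostly below 0, with 2 probe sets in the opposite order.

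Genes of the contractile filaments were called higher in stwl bam more often than lower. Of 17 listed genes of the thin and thick filaments, 12 could be tested, and 7 were higher and 1 lower in stwl bam, with a median change of 0.67. Among all 8764 genes tested, 11.1% were higher and 13.0% lower, with a median of -0.04. Mhc, Act57B, Tm1, wupA and TpnC47D had no probe set annotated to them alone. The summed normalized intensity of the 12 genes was 23900, 23600 and 26800 in bam and 40400, 31200 and 38000 in stwl bam, so replicate 1 was again the highest stwl bam array and replicate 2 the lowest. Of the risen genes, Act88F, the flight muscle actin, changed by 4.14, with 2 bam arrays below background, up, the troponin T gene, by 3.23 and Mf, the myofilin gene, by 1.11 at its brighter probe set. The dimmer probe set of Mf was at -0.30, with a limma adjusted p of 0.153. Flightin, from fln, was under background throughout bam and on 1 stwl bam array, and in stwl bam it was at least 3.07-fold higher. It may have passed the filter only through stwl bam, so its call carries little weight. The fallen one, TpnC41C, a troponin C gene named after its value was seen, changed by -0.96. With replicate 1 or 2 of bam or replicate 3 of stwl bam left out, 3 of the list were called higher, and TpnC41C was called in none of the fits that left out an array other than stwl bam replicate 1. The part of such differences in the values of the 9 genes was not tested. Of the 9 genes, each represented by its brightest probe set, 2 were higher and 2 lower, with a median change of -0.14.

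Other genes of the Z-disc, the M-line and sarcomere assembly were measured for comparison. Of 20 listed, 18 were tested, all above background on every array. Of these 1 was higher and 2 lower, or 16.7% against 24.1% of all genes tested, with a median change of -0.02. The filamin gene cher, which encodes an actin crosslinker also used in ring canals and follicle cells, went from 10.95 ± 0.02 to 9.87 ± 0.16 (SD, n = 3) and thus fell by 1.08 ± 0.09 (SE), with a limma adjusted p of 0.000281. Zyx, the zyxin gene, fell by 0.32 and Flo1, a flotillin gene, rose by 0.42, with limma adjusted p of 0.0204 and 0.0199. Leaving out replicate 2 or 3 of bam or replicate 3 of stwl bam left 1 lower call, and leaving out replicate 1 or 2 of bam or replicate 3 of stwl bam left 0 higher calls. Actn, the alpha-actinin gene whose product Zasp proteins bind, was at 0.21 with a limma adjusted p of 0.25, and zormin, the remaining titin-like gene of the Z-disc and M-line, at 0.14 with a limma adjusted p of 0.649; both are named here outside the naming rule.

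**Figure D4:**
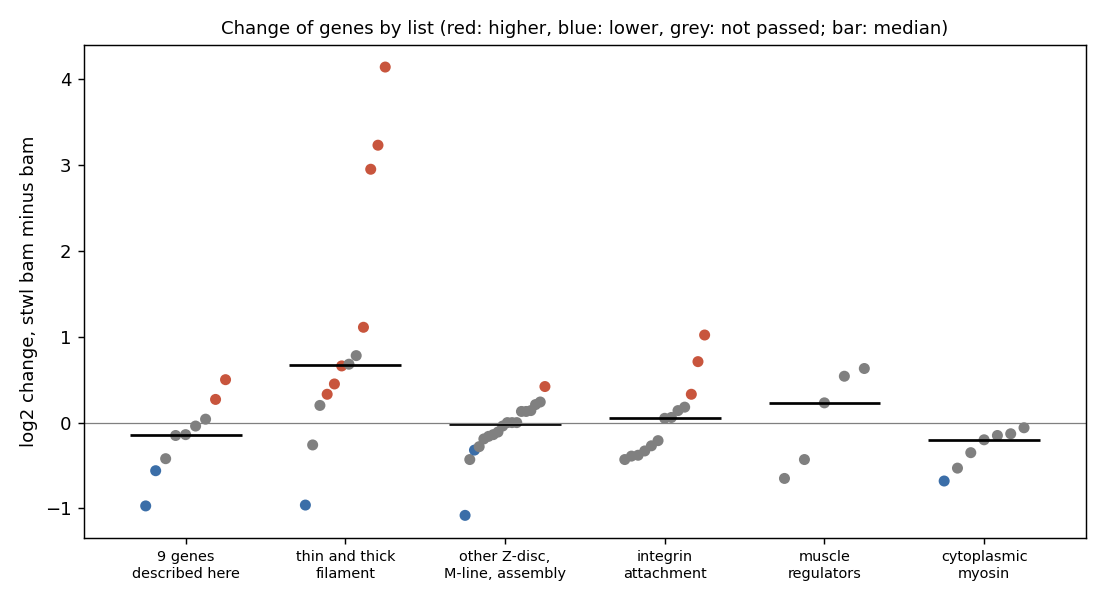
Log2 change from bam to stwl bam of single genes, each by its brightest probe set, on the vertical axis, for the 9 genes and 5 other lists (red: higher, blue: lower, grey: not passed; bar: median). The 9 genes lie between -0.97 and 0.50, and the thin and thick filament list reaches 4.14.

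Genes that attach muscle to the matrix gave 3 higher and 0 lower calls in limma among 13 tested of 14 listed, or 23.1% against 24.1% of all genes tested, with a median change of 0.05. At an unadjusted limma p under 0.05, 3 were higher and 1 lower, and with stwl bam replicate 1 left out 2 were called lower. Those higher were ics, a Ras suppressor homologue that joins the integrin-linked kinase complex, at 1.02 ± 0.10 (SE), Ilk, the integrin-linked kinase gene, at 0.71 ± 0.11, and parvin, a partner of Ilk, at 0.33 ± 0.10, with limma adjusted p of 0.000419, 0.00365 and 0.0448. Of the listed genes of cytoplasmic myosin and its regulators, zip, sqh, Rho1, Cam and CaMKII had no probe set annotated to them alone. Among 7 tested of 12 listed 1 was lower, or 14.3% against 24.1% of all genes tested. This was CASK, a scaffold kinase gene, at -0.68 with a limma adjusted p of 0.028. It was not called when replicate 1 or 2 of bam or replicate 3 of stwl bam was left out, and without stwl bam replicate 2 there were 2 lower calls. Of 18 listed regulators of muscle transcription and splicing 5 were tested and 0 passed in limma, with 2 higher and 1 lower at an unadjusted p under 0.05; the smallest p-values were those of Cf2, at -0.65, and bin, at 0.54, with limma adjusted p of 0.057 and 0.0714. The 6 regulators that had a probe set but were too dim were Hand, Him, HLH54F, lmd, salm and vg. No probe set was annotated to Mef2, bru1, tin, sd, exd, hth or E2f1 alone.

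Markers of other cell types also moved between the genotypes. Over all 8764 genes tested, 11.1% were higher and 13.0% lower, or 24.1% in either direction. The share called was 54.5% for germ cell, 50% for haemocyte, 33.3% for fat body and 44.4% for follicle and somatic ovary genes. It was 50% for neuron and 25% for tracheal genes, each list with only 4 genes tested. Germ cell genes were present, with 10 of 11 above background on every array, and their summed normalized intensity ran from 11800 to 12500 in bam and 10700 to 12400 in stwl bam; 3 were higher and 3 lower. Those with the largest changes were bam, pum (-0.94), ovo (-0.84) and otu (-0.67). The bam call, described above, is among the higher ones, although bam is the gene mutated in both genotypes. The other probe set of pum went the other way, at 0.80 with a limma adjusted p of 0.0346. Of 14 haemocyte genes 7 were lower, ush, crq, PPO1 and Sr-CI with the largest changes, and the sum ran from 21700 to 23600 against 13700 to 20000; without stwl bam replicate 1, 11 were lower. Of 12 fat body genes 3 were higher (Obp99c, Tsf1 and apolpp) and 1 lower (NLaz), but the median change over the list was -0.53. Their sum was 31200, 28100 and 28400 in bam and 16200, 33700 and 16500 in stwl bam, where replicate 2 was the highest. The count of lower fat body genes was 0 when replicate 2 or 3 of bam or replicate 3 of stwl bam was left out, 2 without stwl bam replicate 1 and 4 without stwl bam replicate 2. Of 9 follicle and somatic ovary genes 1 was higher (Past1) and 3 lower (Mmp2, aos and eya), with a median change of -0.82. Their sums were 2600 to 3110 against 2880 to 3340. Of 4 neuron genes 1 was higher (Sh) and 1 lower (futsch), with sums of 151 to 188 against 173 to 338, and nSyb, brp and para were too dim to be tested, as were en and upd1 of the follicle and somatic list. The count of lower neuron genes was 0 when any array other than stwl bam replicate 1 was left out, that of higher ones was 0 when replicate 3 of either genotype was, and the other probe sets of Sh (1.07) and futsch (-0.78) had limma adjusted p of 0.0516 and 0.246. Of 4 tracheal genes 1 was higher (verm), with sums of 758 to 869 against 918 to 1500. The count was 0 when replicate 1 or 3 of either genotype was left out and 2 without stwl bam replicate 2. Both Sh and verm were under background throughout bam, and in stwl bam they were at least 1.44-fold and 2.57-fold higher. They may have passed the filter only through stwl bam, so their calls carry little weight. The part of these cell types in the values of the 9 genes was not tested.

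Genes whose levels followed the same course over the 6 arrays were sought for the largest rise and the largest fall, among 8763 genes compared. For Zasp66 1631326_at the highest Pearson correlations over the 6 arrays were with Ref1 (0.9918), CG10584 (0.9881) and CG4928 (0.9859), and 65 genes exceeded 0.95. For Obsc 1623019_a_at they were with Gapvd1 (0.9941), Ack-like (0.9910) and CG34408 (0.9905), and 110 genes exceeded 0.95. The arrays differ in genotype, so genes that change between the genotypes correlate for that reason alone. With 6 points so many genes reach such values that the likeness is a description only. In the RefSeq gene table of the Release 6 assembly, Zasp66 and Prm have 14 protein-coding genes between them, Strn-Mlck and Zasp52 16, and Obsc and Mlp60A 24, so 6 of the 9 genes lie in loose pairs on the chromosomes. Within these pairs 2 of 3 Zasp66 probe sets were higher where Prm did not pass, 1 of 3 Strn-Mlck probe sets was lower where Zasp52 did not pass, and Obsc 1623019_a_at was lower where Mlp60A did not pass, and these differences between genes were not tested.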

How the data were processed

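The authors deposited linear intensities with a value per array for each probe set, and the submitters' processing notes name GCOS, with no settings. The trimmed mean intensity (2% to 98%) was 219.6 on bam replicate 1 and 248.9 to 249.8 on the others, so arrays were quantile-normalized without the 183 control probe sets. Log2 was taken after adding 7.9, the 25th percentile of all intensities, which understates folds of dim probe sets. Probe sets at or above the 40th percentile of their array on at least 3 of 6 arrays were tested. The model was fitted in limma 3.58.1 (R 4.3.3; lmFit, eBayes with an intensity trend, two-sided). Pairs of probe sets of 1 gene were compared with limma on their per-array log2 difference. For lists, the brightest probe set stood for a gene. Gene names came from the platform annotation, and 13544 of 13647 probe sets with 1 gene matched the RefSeq table by gene number. From each list up to 4 passing genes with the largest change are named, or 2 with the smallest p-value. The small number of arrays limits precision. Members and lists were chosen with earlier results of these data known. Alternatives changed normalization, offset, filter, trend, weights and block, and left out each array.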

Additional observations from a re-analysis of the deposited data

How the results depend on the processing

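Zasp66 1631326_at kept its call under all 17 alternatives, between 0.97 and 1.64 on the log2 scale, and every other muscle gene call was lost under at least 4 of them; the cause was not tested. Leaving out each array in turn gave 1 to 5 muscle probe sets called higher and 0 to 4 lower, 0 to 2 pairs of probe sets called different, 3 to 7 thin and thick filament genes higher and 0 to 1 lower, 0 to 1 other Z-disc genes higher and 1 to 2 lower, 2 to 3 attachment genes higher and 0 to 2 lower, 0 to 1 muscle regulators higher and 0 to 1 lower, and 0 to 2 cytoplasmic myosin genes lower. Median centring on all probe sets called 1 muscle probe set higher and 1 lower, 4 filament genes higher and 0 lower, 0 other Z-disc genes higher and 1 lower, and 1 attachment gene higher; over the table it called 502 probe sets higher and 705 lower, against 1286 and 1381. Intensities as deposited called 0 filament genes lower, 1 other Z-disc gene lower and 1 regulator higher, and rescaling 0 filament genes lower and 1 regulator higher. Without the filter 1 muscle probe set was higher, without the intensity trend 1 was higher and 1 lower, and with array weights 4 were lower. With an offset of 1 no pair of probe sets (0) was called. Among markers of other cell types, neuron genes lower numbered 0 as deposited, with median centring, rescaling, the block and the largest-spread probe sets, neuron genes higher 2 as deposited and with rescaling, tracheal genes higher 2 as deposited, with rescaling, the block and the largest-spread probe sets, germ cell genes higher 1 with median centring, and follicle and somatic genes lower 5 with rescaling. With the largest-spread probe set standing for a gene, 2 other Z-disc genes and 1 regulator were higher.

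Replicate numbers are shared by the genotypes, and the labels give no pairing. Deviations of same-numbered arrays correlated at -0.05, -0.03 and 0.00, and those of differently numbered arrays between -0.06 and 0.10. With 3 arrays per genotype these values cannot decide whether the samples were paired, so the main fit used no pairing. With the replicate number as a block, 1 muscle probe set was called lower, 0 pairs of probe sets differed, 0 filament genes were lower, 1 regulator was lower and 2 cytoplasmic myosin genes were lower; the table then held 1162 higher and 1225 lower probe sets.

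Signs turned only in results that did not pass. The change of bt was 0.09 as deposited, 0.03 with rescaling and 0.10 without stwl bam replicate 2, where sls 1635445_at was at 0.13 and Mlp60A 1626709_at at -0.09. Mlp60A 1638818_at was at -0.02 when either genotype's replicate 3 was left out, sls 1628671_a_at at -0.06 without stwl bam replicate 1, and Mlp60A 1629885_at at -0.04 with values below background set to it. The difference of Strn-Mlck 1624063_at from its brightest probe set was 0.07 with an offset of 50, that of Zasp66 1629383_a_at -0.05 with bam replicate 1 left out and -0.01 with stwl bam replicate 3 left out, and that of Mlp60A 1626709_at -0.04 with bam replicate 2 left out and -0.22 with stwl bam replicate 2 left out. With arrays left out, the change of bt ran from -0.20 to 0.10, of Mlp60A 1626709_at from -0.09 to 0.22, of sls 1628671_a_at from -0.06 to 0.58 and of sls 1635445_at from -0.40 to 0.13; those differences between probe sets ran from -0.22 to 0.20 for Mlp60A and from -0.05 to 0.15 for Zasp66. Over the table, calls ran from 12.4% to 25.1% of probe sets when 1 array was left out.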
